A study of Mus musculus with 6 samples.

Results

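The 10 genes described here encode cytokine receptor chains outside the IL-2 receptor together with the transcription factors STAT3 and STAT6: Il7r, Il6ra, Il6st, Il4ra, Il21r, Il27ra, Il10ra, Il10rb, Stat3 and Stat6. They were taken by gene symbol and were represented by 24 of the 45101 probe sets of a one-colour Affymetrix mouse array, 10 of 18193 named genes. The cells were CD4+ Foxp3+ regulatory T cells (Treg) of the mesenteric lymph node, in 2 groups, and all donor mice were 4 to 6 weeks old. The first group, induced Treg (iTreg), was 3 arrays of cells gated as Nrp-negative from BALB/c TBmc mice with a Foxp3 GFP reporter after 1 week of 1% oral ovalbumin. In TBmc mice, which lack the recombinase, every T cell bears the same ovalbumin-specific receptor and every B cell the same antibody receptor, and thymus-derived Treg are largely missing. The second group was 3 arrays of the whole Treg pool of BALB/c mice that are wild-type (WT) apart from the Foxp3 GFP reporter, with no feeding named in the labels. All mice share the BALB/c background, while genotype, diet and the Nrp gate change at once and cannot be told apart.

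Cytokine receptors of this kind have no kinase of their own. Ligand binding brings receptor chains together, the Janus kinases (JAKs) bound to their tails phosphorylate the receptor, and STAT proteins dock there, are phosphorylated and enter the nucleus. IL-6, IL-10, IL-21 and IL-27 act in large part through STAT3, IL-4 through STAT6, and IL-7 mainly through STAT5. In Treg, STAT3 downstream of the IL-10 receptor is known for restraint of Th17 inflammation, while IL-6 through the same STAT opposes induction of Foxp3; low IL-7 receptor is a known surface trait of many Foxp3+ cells.

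The labels of 2 arrays disagree with their titles. WT replicate 1 is titled total Treg but carries a cell type label of Nrp-negative cells, and TBmc is absent from the strain given for iTreg replicate 1. Values are given with both arrays. Values without them are added for many of the named differences, and those without such a value may also move. Nothing in the labels ties replicates to separate mice, and the spread behind each p-value may be in part technical. In sorted pools, a lower signal can mean fewer cells with the transcript or less transcript per cell, and these cannot be told apart. T cell genes and the Treg genes Il2ra, Ctla4, Ikzf2 and Tnfrsf18 were well above background on every array, while the single Foxp3 probe set read 15.6 to 54.6 in iTreg and 9.16 to 45.7 in WT Treg. Unspiked bacterial control probe sets, which measure background, reached 28.5 on WT replicate 2 and from 10.8 to 17.7 on the other arrays. Of 24 marker genes of other cell types with a probe set, 12 lay below 28.5 on all 6 arrays. Among them were the B cell genes Ms4a1 and Pax5, the myeloid genes Itgax and Cd14 and the NK cell gene Ncr1. The rest exceeded it on some array, among them the B cell gene Cd79b (up to 83.7) and the myeloid genes Cd68 (74.4) and Lyz2 (44.6). The CD8 genes Cd8a (93.0) and Cd8b1 (132) exceeded it too. No marker was at 0.

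Of the genes, Il7r and Stat3 had the lowest unadjusted p-values, each on 1 probe set, and they pointed opposite ways. RefSeq promoters (GRCm38.p6, 250 bases before to 50 after the listed start) are shown for these genes because the report turns on them; 7 of the 10 genes had an entry. Capitals mark GGAAGT, the core bound by ETS factors, read on either strand (as ACTTCC on the reverse), and TTCNNNGAA, the palindrome bound by STAT dimers.
Il7r, chr15:9529827-9530126, minus strand: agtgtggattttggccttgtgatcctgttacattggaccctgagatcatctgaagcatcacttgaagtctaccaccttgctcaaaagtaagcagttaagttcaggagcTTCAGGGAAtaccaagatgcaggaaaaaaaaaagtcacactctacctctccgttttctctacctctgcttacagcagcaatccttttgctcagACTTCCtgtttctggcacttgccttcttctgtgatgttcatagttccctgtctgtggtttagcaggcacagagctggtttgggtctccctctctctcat
Stat3, chr11:100939491-100939790, minus strand: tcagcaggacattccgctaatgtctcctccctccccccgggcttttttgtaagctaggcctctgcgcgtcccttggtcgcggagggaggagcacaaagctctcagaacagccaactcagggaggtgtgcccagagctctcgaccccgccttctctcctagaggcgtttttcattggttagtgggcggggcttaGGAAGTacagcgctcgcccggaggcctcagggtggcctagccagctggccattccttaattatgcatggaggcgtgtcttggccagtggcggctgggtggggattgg

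GGAAGT occurred in 3 of the 7 member promoters (Il7r, Il6ra and Stat3) and in 23.8% of 32851 promoters of the same length. TTCNNNGAA occurred in that of Il7r alone among the 7 and in 8.3% of all, and TTCNNNNGAA, the wider spacing preferred by STAT6, in none of the 7 and in 6.95% of all. In the Il7r sequence the motifs did not overlap, and the Stat3 sequence held GGAAGT alone. A match describes these letters only and is no evidence of binding.

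Il7r, the alpha chain of the IL-7 receptor (CD127) that carries survival signals in naive and memory T cells, was the member with the most negative difference. On its brighter probe set, 1448575_at, the signal was 1441, 1295 and 590.0 in iTreg replicates 1, 2 and 3, against 3729.9, 1425 and 2579.6 in WT Treg replicates 1, 2 and 3. The groups overlapped by a small margin, iTreg replicate 1 lying just above WT replicate 2, and WT replicate 1 was the highest. The means were 1109 ± 455 (SD, n = 3) in iTreg and 2578 ± 1152 in WT Treg, which is a difference of -1.20 ± 0.41 (standard error) on the scale log2(signal + 16), with a 95% interval from -2.09 to -0.31. It did not pass the threshold of 0.05 (limma, Benjamini-Hochberg over 27022 probe sets, adjusted p = 0.706) and ranked 457th of these by p.

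The other Il7r probe set, 1448576_at, read 177, 185 and 253 in iTreg, against 735, 251 and 293 in WT Treg. Here WT replicate 1 stood apart, and iTreg replicate 3, the lowest array on the brighter probe set, was the highest of its group. The log2 difference was -0.86, with a 95% interval from -1.76 to 0.049 (limma adjusted p = 0.819). Without WT replicate 1, the array labelled Nrp-negative, the differences were -0.88 for 1448575_at and -0.40 for 1448576_at. Without both arrays with label doubts they were -1.12 and -0.31. Without iTreg replicate 3 they were -0.80 and -1.01. Both probe sets were negative in each of these removals, and their sizes depended on which arrays were kept. Some markers of the cells themselves had the same sign as Il7r. Tnfrsf18, a Treg costimulatory receptor, differed by -0.99 and Ikzf2 (Helios), a Treg transcription factor, by -0.56. The T cell gene Cd5 differed by -1.06 and Il2ra by -1.35. All were lower in iTreg without overlap, as were 6.89% of all probe sets tested, and none was called (limma adjusted). Ctla4 differed by -0.33 and Foxp3, near background, by 0.23, both with overlap. The 5 Treg markers had a median of -0.56, with 1 positive and 4 negative. Of the 6 T cell markers, 2 were positive (Cd4 at 0.48 and Cd3e at 0.30) and 4 negative, with a median of -0.38. The part of these markers in the Il7r difference was not tested. RNA quality can be read from the log2 excess of the 3′ over the 5′ control probe set. For Gapdh it was 3.06, 2.48 and 3.38 in iTreg replicates 1 to 3, against 2.28, 2.53 and 2.34 in those of WT Treg. For beta-actin it was 0.38, 0.25 and -0.00044 in iTreg, against 0.14, 0.27 and 0.32 in WT Treg, so the Gapdh pattern was not repeated. The part of RNA quality in these and the following differences was not tested.

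Stat3, the shared transducer of the IL-6, IL-10, IL-21 and IL-27 receptors, had positive differences on all 4 of its probe sets. Probe set 1460700_at read 999.9, 782 and 1253 in iTreg, against 478, 435 and 605 in WT Treg. All 3 iTreg arrays lay above every WT array. The means were 1012 ± 236 (SD, n = 3) in iTreg and 506 ± 88.4 in WT Treg. The log2 difference was 0.97 ± 0.30 (standard error), with a 95% interval from 0.31 to 1.62 (limma adjusted p = 0.636), and ranked 316th of 27022 by p. Leaving out single arrays kept it between 0.80 and 1.13, and it was 0.93 without both arrays with label doubts.

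The Stat3 probe set with the highest mean log2 level, 1426587_a_at, read 661, 915 and 806 in iTreg, against 583, 689 and 741 in WT Treg. Its groups overlapped, and the log2 difference was 0.23 (interval from -0.39 to 0.85). Probe set 1459961_a_at read 513, 221 and 191 in iTreg, against 324, 196 and 75.2 in WT Treg, and the log2 difference was 0.66 with overlapping groups and an interval from -0.45 to 1.77. It was 0.14 without WT replicate 3, 0.24 without iTreg replicate 1 and 1.09 without WT replicate 1. Probe set 1424272_at read 20.9, 18.0 and 28.5 in iTreg, against 10.7, 14.4 and 12.9 in WT Treg. These groups did not overlap, but every array lay below the highest unspiked control of any array, so the log2 difference of 0.42 has no firm size. Set against the highest control of its own array, each iTreg value lay above and each WT value below. For WT replicate 1 the margin was only 10.7 against 10.9. The 4 probe sets shared a sign and not a size. Probe set 1424272_at reached the level needed for testing through iTreg alone, so neither its split at the controls nor its sign adds weight to the others.

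**Figure D1:**
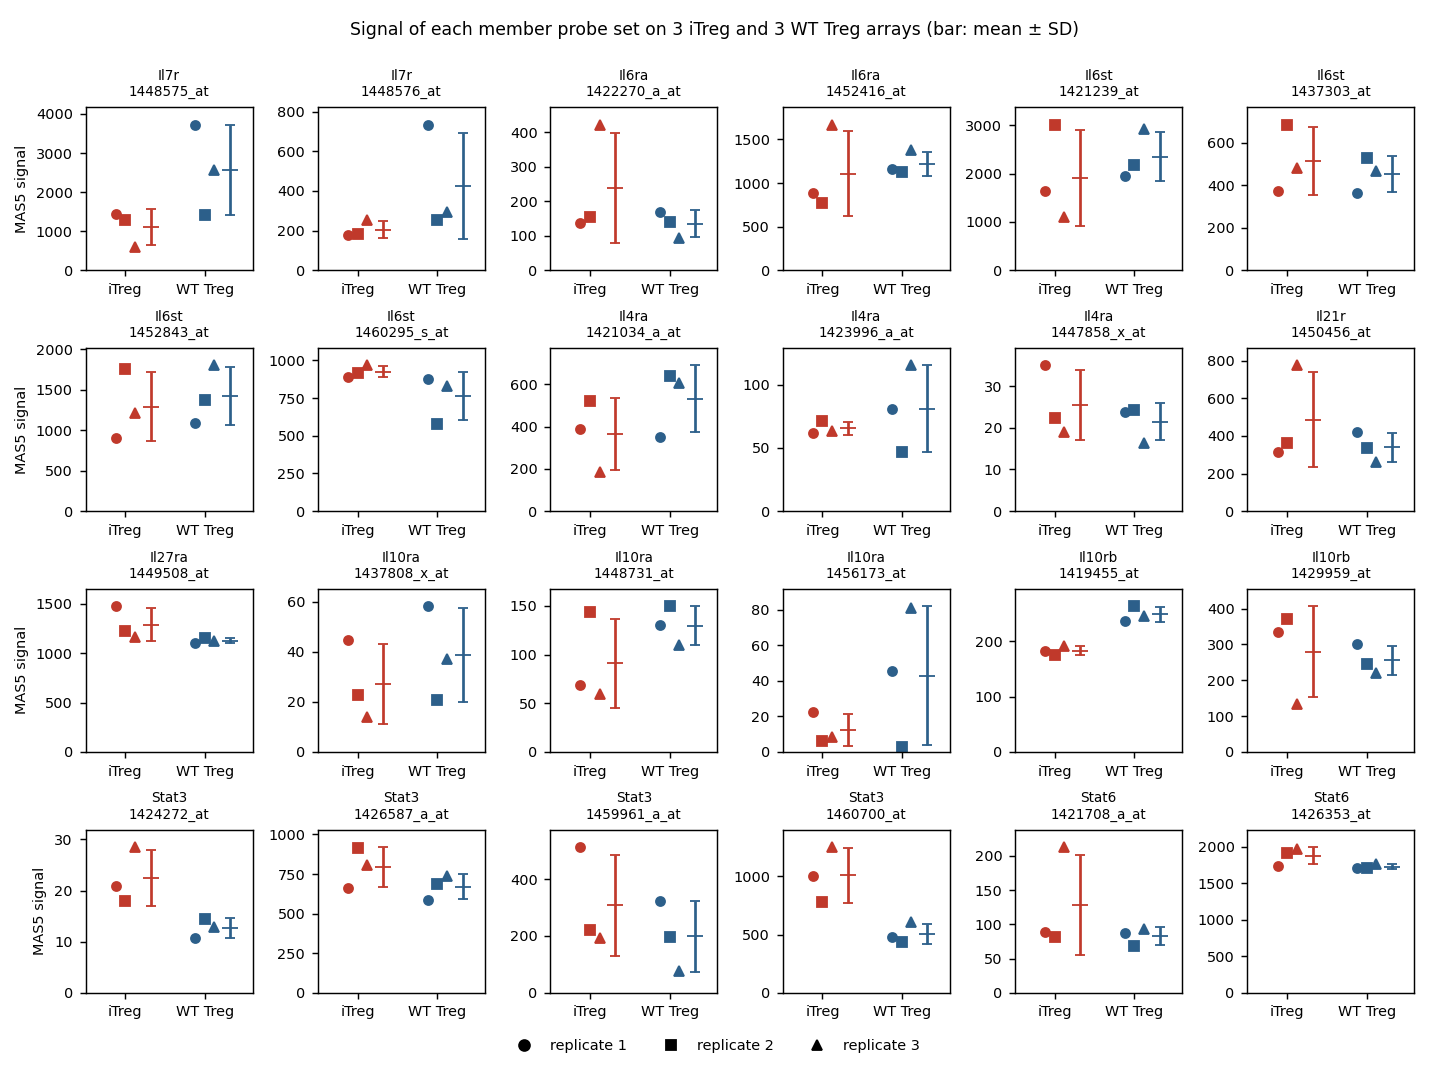
MAS5 signal (linear axis from 0) of the 24 member probe sets, with each array as a point (circle, square and triangle for replicates 1, 2 and 3), iTreg in red and WT Treg in blue, and bars for mean ± SD of 3 arrays. Stat3 1460700_at and Il10rb 1419455_at separate the groups clearly, while Il7r 1448575_at overlaps only through iTreg replicate 1 at 1441 and WT replicate 2 at 1425.

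Stat6, which carries the IL-4 and IL-13 signal, was close in the groups on its brighter probe set. Probe set 1426353_at read 1741, 1914 and 1969 in iTreg, against 1710.4, 1704 and 1766 in WT Treg. The log2 difference was 0.12, with a 95% interval from -0.43 to 0.66 (limma adjusted p = 0.968). The other probe set, 1421708_a_at, read 89.5, 82.2 and 213 in iTreg, against 86.9, 68.1 and 93.8 in WT Treg. Only iTreg replicate 3 stood above the WT range, and without that array the log2 difference of 0.44 was 0.050. The same difference was 0.64 without both arrays with label doubts.

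Il6ra, the IL-6-binding chain, and Il6st (gp130), the signalling chain shared by IL-6, IL-27 and related cytokines, showed no common direction. Il6ra probe set 1452416_at read 882, 776 and 1671 in iTreg, against 1159, 1125 and 1377 in WT Treg, and the log2 difference was -0.21 (interval from -0.92 to 0.49). Il6ra probe set 1422270_a_at read 137, 156 and 423 in iTreg, against 170.2, 142 and 94.2 in WT Treg, and the log2 difference was 0.61 (interval from -0.38 to 1.61). On both, iTreg replicate 3 was the highest of all arrays, and iTreg replicates 1 and 2 lay below or within the WT range. Probe set 1422270_a_at differed by 0.13 without iTreg replicate 3 and by 1.06 without both arrays with label doubts.

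The 4 probe sets of Il6st split evenly in sign. Probe set 1421239_at read 1642, 3016 and 1092 in iTreg, against 1958, 2176 and 2918 in WT Treg, and the log2 difference was -0.40 (interval from -1.17 to 0.38), and iTreg arrays held both its highest and its lowest value. The differences were -0.16 for 1452843_at and 0.15 for 1437303_at, both with overlapping groups. Probe set 1460295_s_at read 893, 916 and 968 in iTreg, against 879, 579 and 833 in WT Treg. Its groups did not overlap, by a margin of 893 against 879, and its log2 difference was 0.29 (interval from -0.33 to 0.92). The ending _s_at means that its probes may match transcripts of more than 1 gene.

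Il27ra, the chain that pairs with gp130 for IL-27, read 1476, 1224 and 1165 in iTreg, against 1107, 1152 and 1119.8 in WT Treg on its single probe set, 1449508_at. The groups did not overlap, again by a small margin, and the log2 difference was 0.18, with a 95% interval from -0.39 to 0.76 (limma adjusted p = 0.941).

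Il4ra, which binds IL-4 and recruits STAT6, and Il21r, the IL-21 receptor, both signal with the common gamma chain in T cells. Il4ra probe set 1421034_a_at read 391, 521 and 186 in iTreg, against 351, 640.5 and 604 in WT Treg, and the log2 difference was -0.59 with overlapping groups (interval from -1.47 to 0.30; limma adjusted p = 0.875). Without iTreg replicate 3, the lowest array, it was -0.18, and without both arrays with label doubts -0.95. The other Il4ra probe sets differed by -0.19 (1423996_a_at) and 0.13 (1447858_x_at), and 5 of 6 arrays of the _x_at probe set lay below the highest unspiked control. Il21r, on its single probe set 1450456_at, read 316, 364 and 776 in iTreg, against 419.8, 337 and 264 in WT Treg. The log2 difference of 0.40 (interval from -0.43 to 1.24) came mostly from iTreg replicate 3, and without that array it was 0.019. It was 0.80 without both arrays with label doubts.

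The IL-10 receptor chains were negative or near 0. Il10ra, the ligand-binding chain that docks STAT3, had differences of -0.52 on 1448731_at, -0.35 on 1437808_x_at and -0.80 on 1456173_at, all with overlapping groups. The brightest of these, 1448731_at, read 68.8, 144 and 59.9 in iTreg, against 130.02, 149 and 109.8 in WT Treg, and only iTreg replicate 2 lay within the WT range. Leaving out single arrays gave -0.85 to -0.32 for 1448731_at, -0.63 to -0.11 for 1437808_x_at and -1.48 to -0.63 for 1456173_at. The last was too dim to test without WT replicate 3 and differed by -0.21 without both replicate 3 arrays. Of the dimmer probe sets, 1437808_x_at lay below the highest unspiked control on 3 arrays and 1456173_at on 4. Probe set 1456173_at reached the level needed for testing through WT Treg alone, so its difference has no firm size.

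Il10rb, the chain shared by IL-10, IL-22 and interferon lambda, gave narrow groups on probe set 1419455_at. It read 183, 175 and 191 in iTreg, against 237, 263 and 245 in WT Treg, with means of 183 ± 7.99 (SD, n = 3) in iTreg and 248 ± 13.4 in WT Treg. The 3 iTreg arrays all lay below the WT arrays, and the gap of 191 to 237 exceeded the spread within either group. The log2 difference was -0.41, with a 95% interval from -1.12 to 0.31 (limma adjusted p = 0.905). limma pools the variance over probe sets of like brightness, so its interval is wider than these 6 values alone would give. With 3 arrays against 3 an exact permutation test cannot fall below 0.10. Leaving out single arrays kept the difference between -0.44 and -0.37, and it was -0.44 without both arrays with label doubts. The brighter Il10rb probe set, 1429959_at, did not repeat it: it read 334, 370.3 and 134 in iTreg, against 301, 245 and 221 in WT Treg, and the log2 difference was 0.018.

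**Figure D2:**
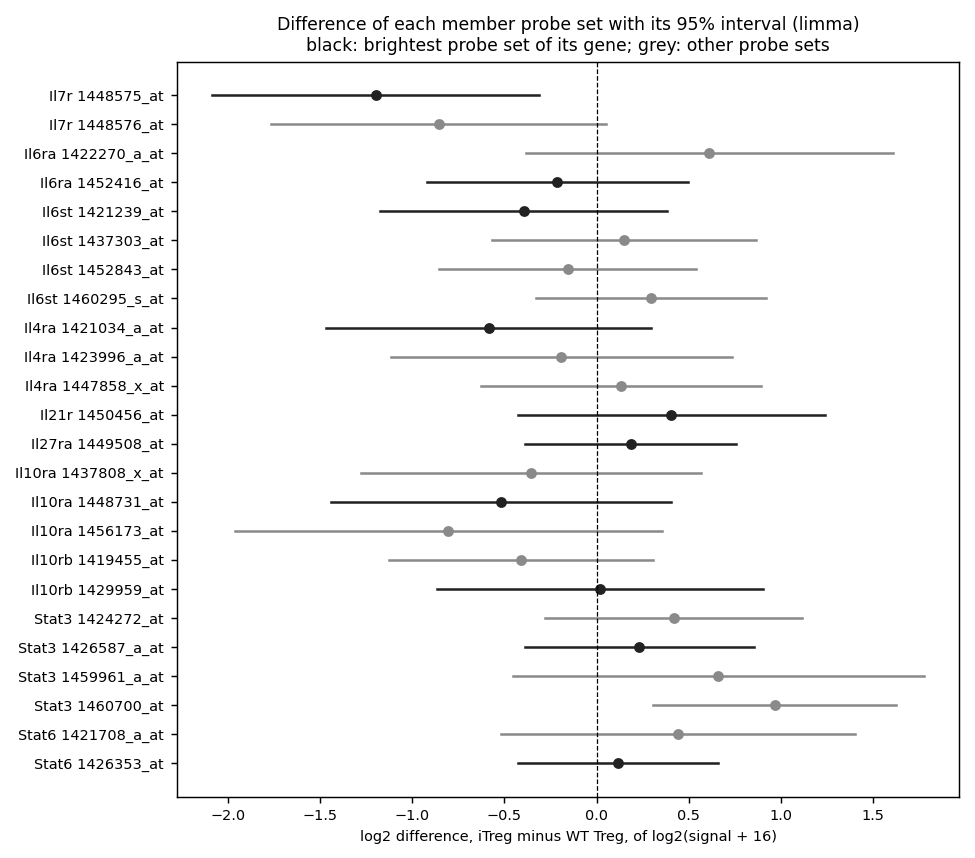
Log2 difference of each member probe set, iTreg minus WT Treg, with its 95% interval from limma; black marks the probe set with the highest mean log2 level of its gene. Only the intervals of Il7r 1448575_at (-2.09 to -0.31) and Stat3 1460700_at (0.31 to 1.62) leave out 0, and neither passes adjustment over all probe sets.

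limma called 0 of the 24 at an adjusted p under 0.05, where it called 7 of all 27022 tested (0.0259%), 1 higher (0.0037%) and 6 lower (0.0222%). At an unadjusted p under 0.05, 1 member probe set was lower (Il7r 1448575_at, background 3.77%) and 1 higher (Stat3 1460700_at, background 2.44%), together 8.33% of members against 6.21% of all. Stat3 1460700_at stayed under that level in each of the 6 removals of a single array and not without both arrays with label doubts. Il7r 1448575_at was not under it without WT replicate 1, without iTreg replicate 3 or without both replicate 3 arrays. Groups without overlap were found for 4 member probe sets that were higher (Stat3 1460700_at and 1424272_at, Il27ra and Il6st 1460295_s_at; background 4.54%) and 1 that was lower (Il10rb 1419455_at; background 6.89%). The shares were 16.7% of members higher and 4.17% lower, together 20.8% of members against 11.4% of all. They count Stat3 1424272_at, whose lack of overlap adds no weight because it reached the filter through iTreg alone. The median difference was 0.067 over the 24 probe sets and -0.022 over all. All 24 passed the filter on low values, 2 of them through 1 group alone (Il10ra 1456173_at through WT Treg and Stat3 1424272_at through iTreg). Il7r 1448575_at was the only member past 1 log2 unit, 4.17% of members against 4.85% of all.

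The members disagreed within genes. Of the 8 genes with more than 1 probe set, 4 (Il6ra, Il6st, Il4ra and Il10rb) had differences of both signs, and Il7r, Il10ra, Stat3 and Stat6 kept 1 sign. For Il10ra and Stat3 this includes a probe set that reached the filter through 1 group alone, whose sign adds no weight. iTreg replicate 3 was the highest or lowest array for 14 of the 24 probe sets, and for 48.0% of all probe sets tested. It was the highest for both Il6ra probe sets, Il21r, both Stat6 probe sets, 2 of Stat3 and Il6st 1460295_s_at, and the lowest for the brightest probe sets of Il7r, Il4ra, Il6st, Il10ra and Il10rb and for Il10ra 1437808_x_at. WT replicate 3, which was likewise extreme on 43.8% of all probe sets, was so for 7 of the 24. Without both replicate 3 arrays the differences of Il6ra 1422270_a_at, Il6st 1421239_at and Il21r were -0.081, 0.11 and -0.14, opposite in sign to those with all arrays.

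**Figure D3:**
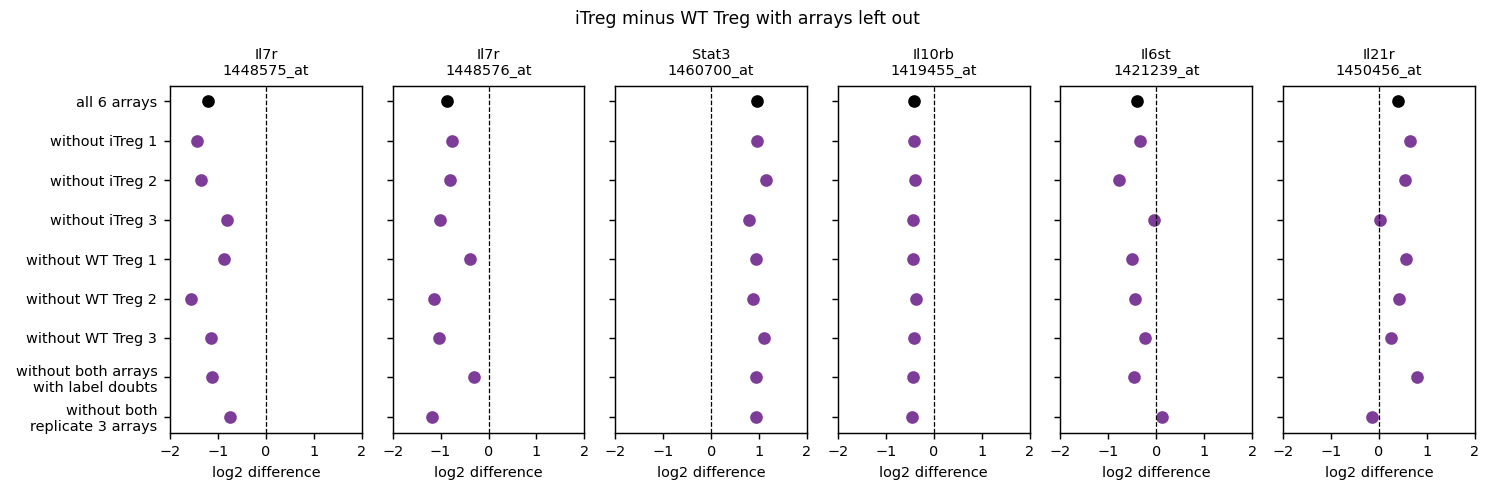
Log2 difference, iTreg minus WT Treg, for 6 member probe sets with all arrays (black) and with arrays left out (purple). Stat3 1460700_at and Il10rb 1419455_at stay in a narrow band, Il7r varies in size, and Il6st 1421239_at and Il21r cross 0 without both replicate 3 arrays.

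The other genes of these pathways were taken from lists, with the brightest probe set of each gene. No list member passed over all probe sets (limma). Of the JAKs, the kinases on which every receptor here depends, all 4 had positive differences with a median of 0.52, against -0.028 over all 11308 genes tested, although Jak1 was near 0. Jak2, used by gp130, read 1641, 1314 and 1849 in iTreg, against 1189.6, 796 and 989 in WT Treg, and the log2 difference was 0.69 (limma adjusted p = 0.775). Jak3, the partner of the common gamma chain, read 83.0, 206 and 178 in iTreg, against 74.4, 63.0 and 47.2 in WT Treg, and the log2 difference was 1.08 (limma adjusted p = 0.775). In both, the iTreg arrays lay above all WT arrays, and leaving out single arrays gave 0.54 to 0.83 for Jak2 and 0.85 to 1.44 for Jak3. Tyk2, which serves gp130 and Il10rb, differed by 0.34 and Jak1 by 0.020, both with overlapping groups. Tyk2 was at 0.035 without iTreg replicate 3 and at -0.16 without both replicate 3 arrays, and Jak1 turned to -0.17 without WT replicate 2. Jak3 was at 1.55 and Tyk2 at 0.63 without both arrays with label doubts.

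Of the other STATs with a named probe set, 3 were positive and 1 negative, with a median of 0.26 and no group separation. Stat5a differed by 0.48, Stat2 by 0.43, Stat5b by 0.087 and Stat4 by -0.085, which turned to 0.0033 with arrays scaled to a common median. Stat5a was at 0.30 and Stat2 at 0.72 without both arrays with label doubts. Of gamma-chain family receptors and Crlf2, the TSLP receptor chain that pairs with Il7r, 1 was positive and 3 negative, and Il2rb, at -0.011, was positive with median scaling at 0.079. Il2ra, the IL-2 receptor alpha chain, read 1169, 2191 and 2256 in iTreg, against 3537, 4656 and 5859.7 in WT Treg, and the log2 difference was -1.35 (limma adjusted p = 0.370), the same direction as Il7r. It was -1.53 to -1.04 without single arrays. Crlf2 differed by 0.91 with wide overlap, from 151 to 822 in iTreg and from 95.9 to 351 in WT Treg, and single arrays moved it between 0.41 and 1.58. The gp130 family and class II receptor chains had medians of 0.12 and 0.045, with 3 positive and 1 negative and with 3 positive and 2 negative. The negative gp130 family gene, Il12rb2, reached the filter through WT Treg alone, where WT replicate 1 read 130. Its sign therefore carries no weight, and its difference was 0.076 without that array, which has a label doubt. Of 8 ligand genes with a probe set 2 were bright enough to test. These were Ebi3, the IL-27 subunit, and Il10. Ebi3 read 120, 53.6 and 403 in iTreg, against 106, 91.6 and 90.02 in WT Treg. Its log2 difference of 0.50 came from iTreg replicate 3 and was -0.20 without that array. Il10 read 3.74, 0.41 and 6.03 in iTreg, all below the highest unspiked control, against 83.7, 36.3 and 36.01 in WT Treg. It reached the filter through WT Treg alone, so no size of difference is given.

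Genes that STAT3 is known to induce went both ways, 6 positive and 5 negative of 11 tested, with a median of 0.036. Il10 is 1 of the 5, and because it reached the filter through WT Treg alone, its sign carries no weight. Socs3, the inhibitor that binds gp130 and is itself induced by STAT3, read 1331, 962 and 1948 in iTreg, against 687, 399 and 389 in WT Treg, and the log2 difference was 1.49 (limma adjusted p = 0.349). Every iTreg array lay above every WT array, as for Stat3 1460700_at, and the difference was 1.23 to 1.75 without single arrays. Bcl6, a transcriptional repressor of follicular cells, differed by 0.79, also without overlap, and Bcl3, an NF-kB cofactor, by 0.81 with overlap and by 0.34 without iTreg replicate 3. Bcl6 was at 0.49 and Bcl3 at 1.03 without both arrays with label doubts. Maf, an activator of Il10, went the other way: 828, 873 and 1133 in iTreg, against 1898.5, 2150.2 and 3344 in WT Treg, and the log2 difference was -1.34 (limma adjusted p = 0.316). It was -1.50 to -1.10 without single arrays. Pim1, a survival kinase, differed by -0.59 with overlap. Batf, an AP-1 factor, read 479, 381 and 27.3 in iTreg, against 564, 368 and 788 in WT Treg. Its log2 difference of -1.46 came mostly from iTreg replicate 3, and it was -0.35 without that array and -0.090 without both replicate 3 arrays. Batf was at -2.08 without both arrays with label doubts.

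Of 4 tested STAT6 targets 1 was positive and 3 negative, with a median of -0.41. Nfil3, a basic leucine zipper factor, read 38.6, 106 and 35.4 in iTreg, against 185, 179 and 183 in WT Treg, and the log2 difference was -1.50 (limma adjusted p = 0.584). Gata3, the Th2 factor, differed by 0.28 and Ccr4, a chemokine receptor, by -0.60, both with overlap. Gata3 ranged from -0.091 to 0.80 and Ccr4 from -1.28 to -0.11 without single arrays, while Nfil3 ranged from -1.91 to -1.28. Gata3 was at -0.0041 and Ccr4 at -0.11 without both arrays with label doubts. Of the negative regulators, 3 were positive and 6 negative with a median of -0.23. Their extremes were the suppressors Socs3, given above, and Socs2 at -2.01, which read 161, 178 and 260.006 in iTreg, against 622, 831 and 1124 in WT Treg (limma adjusted p = 0.123) and ranged from -2.22 to -1.80 without single arrays.

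Genes that regulate Il7r or answer it showed no shared shift. Of 9 tested regulators 4 were positive and 5 negative (7 positive with median scaling), with a median of -0.0011. Foxo1, an activator of Il7r, differed by 0.20, Gfi1, a repressor of it, by -0.23 and Runx3 by 0.57, all with overlap. Runx3 was at 0.35 without both arrays with label doubts. Foxo1 and Gfi1 each crossed 0 when single arrays were left out, with ranges of -0.15 to 0.47 and -0.45 to 0.049. Gabpa, the ETS factor known to act on the Il7r promoter, read 563, 548 and 567 in iTreg, against 593, 614 and 622 in WT Treg. Its groups did not overlap, but its log2 difference was small, -0.12 (limma adjusted p = 0.971). Of the IL-7 survival genes, 3 were positive and 3 negative, with a median of -0.029. Bcl2 differed by -0.12 and Mcl1 by 0.043, both crossing 0 without single arrays (-0.27 to 0.039 and -0.15 to 0.21), and Ccr7, the lymph node homing receptor, by 0.70 with overlapping groups.

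**Figure D4:**
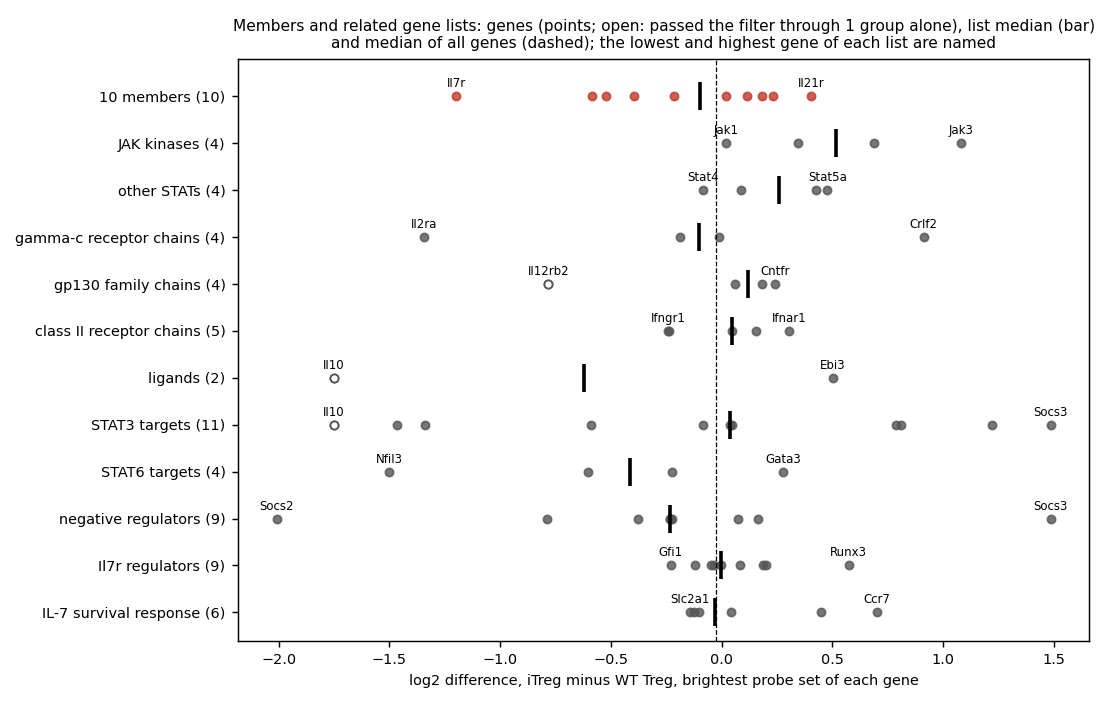
Log2 difference, iTreg minus WT Treg, of the 10 members (red) and of tested genes of related lists (grey), 1 probe set for each gene, with list medians as bars and the median of all genes dashed. The 4 JAKs lie above the dashed line, Jak1 only just at 0.020. The STAT3 targets lie on both sides, with Socs3 highest at 1.49. Open circles are genes such as Il10 that reached the filter through 1 group alone, whose place on the axis has no firm size.

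The genes most like the 2 members of lowest p among brightest probe sets were ranked by Pearson correlation of log2 values over the 6 arrays. For Il7r they were Dst, Dapp1, Ppa1, Twistnb and Sla, with correlations from 0.986 to 0.999. For Il4ra they were Gm13889, Rex1bd, Tmem126b, Pus3 and 4930451I11Rik, with correlations from 0.984 to 0.994. They are the highest of 11307 genes over 6 arrays, which share 1 scaling, and are given as a description only.

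Myeloid cells express Il6ra, Il10ra and Socs3 as well as T cells do. The summed signal of 8 myeloid and dendritic markers ranged from 105 to 201 in iTreg and from 70.5 to 109 in WT Treg. Of these, Lyz2 read 44.6, 44.2 and 23.1 in iTreg, against 21.9, 9.01 and 8.79 in WT Treg. By group mean, Itgam, Csf1r, Cd68 and Flt3 were also higher in iTreg, and Itgax, Siglech and Cd14 were lower. Lyz2 and Itgam reached the filter through iTreg alone, so their differences have no firm size. Itgax, Flt3, Siglech and Cd14 lay below the highest unspiked control on all arrays. Summed B cell markers ranged from 56.1 to 119 in iTreg and from 74.4 to 120.4 in WT Treg, and CD8 markers from 101 to 225 in iTreg and from 73.2 to 107 in WT Treg. The NK sum ranged from 8.91 to 27.6 in iTreg and from 12.8 to 18.4 in WT Treg, and the red cell sum from 16.8 to 86.6 in iTreg and from 44.0 to 55.5 in WT Treg. The stromal sum ranged from 378 to 811 in iTreg and from 413 to 435 in WT Treg and was nearly all Pecam1, which T cells also express. The part of other cells in the differences above was not tested.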

How the data were processed

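The deposited values are MAS5 signal intensities on a linear scale, 1 for each probe set, per the submitters' processing notes; no MAS5 version is named in the sources used here. The 2% trimmed mean was 150.0 on every array, which shows scaling to a common level before deposit. Arrays carry no read depth, and their number limits the precision. RNA was extracted with Trizol, per the labels' protocols.

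Groups and replicate numbers came from the sample titles. Probe sets were named by the platform table (34945 with 1 gene, 932 with several, 9160 with none), with symbols updated through RefSeq gene IDs; 64 controls were left out. Signals were transformed as log2(signal + 16), which understates changes of dim genes. Probe sets whose mean reached the 40th percentile (4.905) were tested, 27022 in all, each apart, with limma 3.58.1 in R 4.3.3 (lmFit, eBayes with trend), two-sided, with Benjamini-Hochberg adjustment at 0.05. Scripts were tested on simulated data with planted differences larger than any member difference here, so that test does not cover differences of the size reported. The members and lists were chosen with earlier results of these data known. Named were all member probe sets and, of each list, leading members by p, with some others named for their role after their values were seen. Names ending in _a_at, _s_at or _x_at mark probes that can match several transcripts or genes. Alternatives were other pseudocounts, scalings, filters, variance models and array weights, 1 probe set for each gene, a replicate block and arrays left out. The removal of arrays for list genes was added after seeing the data.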

Additional observations from a re-analysis of the deposited data

How the results depend on the processing

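No member probe set passed the threshold under any of the 19 alternatives run, and the lowest adjusted p of any was 0.403 (limma). Of the 24 member probe sets, 16 kept 1 sign in every alternative in which they were tested. These include Stat3 1424272_at and Il10ra 1456173_at, tested in 17 and 16 of the 19 alternatives. Both reached the filter through 1 group alone, so their signs add no weight. Of 437 recomputed differences, 15 reversed. Without both replicate 3 arrays they were -0.081 (Il6ra 1422270_a_at), 0.11 (Il6st 1421239_at), 0.047 (Il6st 1452843_at), 0.076 (Il4ra 1423996_a_at) and -0.14 (Il21r), and without both arrays with label doubts -0.045 (Il10rb 1429959_at). Leaving out single arrays gave -0.40 to 0.069 for Il6st 1452843_at, -0.077 to 0.35 for Il6st 1437303_at, -0.027 to 0.24 for Il4ra 1447858_x_at, -0.47 to 0.059 for Il4ra 1423996_a_at and -0.23 to 0.45 for Il10rb 1429959_at; the cause was not tested.

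Over all probe sets, 1 was called higher and 6 lower. Leaving out single arrays gave 0 to 3 higher and 0 to 6 lower. A pseudocount of 1 and no filter each gave 0 higher and 2 lower, median scaling 2 higher, array weights 11 lower, 1 probe set for each gene 0 higher and 3 lower, and the removal of both arrays with label doubts or of both replicate 3 arrays 0 of either. With the replicate block, 2 were called lower and 1 higher. Same-numbered arrays correlated at 0.191, 0.0365 and 0.118 in their deviations from group means, so the numbers were not taken as pairs, although each array correlated best with its own number, a hint from the data and not the design. Median scaling moved the median of all probe sets to 0.055. Arrays have no depth; signals near the unspiked controls limit Il10ra, Il4ra and Stat3 probe sets.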
